A study of Mus musculus with 18 samples.

Results

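The genes described here are 41 genes whose proteins hepatocytes make and release into the blood plasma, and the regions of open chromatin found in and around them in isolated liver macrophages (LMs). They comprise 10 carriers and binding proteins, 2 fetuins with kininogen, 7 apolipoproteins, 10 genes of coagulation and fibrinolysis, 8 genes of protease inhibitors, inter-α-trypsin inhibitor heavy chains, and vitronectin, and 3 complement genes. An open region was assigned to a gene when its midpoint lay in the gene body or within 10 kb of either end, on the mm9 genome with the matching GENCODE annotation. All 41 genes were in that annotation, among 22367 protein-coding genes on chromosomes 1 to 19, X, and Y, and they held 162 of the 69499 deposited regions.

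ATAC-Seq, in which a transposase cuts DNA where chromatin is accessible and tags the ends for sequencing, was run on 50000 isolated cells per reaction. The 18 libraries came from male C57BL/6J mice on a 4-week high fat and sucrose diet, with 3 replicates in each of 6 groups. The genotypes were Control, *Reverb*-hDKO, and also *Reverb/Scap*-hTKO, each at zeitgeber time (ZT) 10 and ZT22, where ZT counts the hours from lights on. *Reverb*-hDKO mice lacked REV-ERBα and REV-ERBβ, the repressors of the circadian clock, and *Reverb/Scap*-hTKO mice lacked in addition SCAP, the escort protein that SREBPs need for their processing. All mice carried floxed alleles, and adults received an adeno-associated virus intravenously. The virus expressed CRE from the TBG promoter for the deletions and GFP from the same promoter for controls. That promoter is active in hepatocytes, so the genes were deleted in hepatocytes and not in the LMs that were measured.

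Of these data, 1 list for all 18 libraries was analysed here, which gives positions alone and no count, score, or library for any region. The depth of the libraries and the spread between replicates are therefore unknown, and no plasma protein gene could be compared between genotypes or times. A region may come from a few cells in which the site is wide open or from many in which it is weakly open, and these cannot be told apart. Every count below is a description of this list and carries no test. The ranges in parentheses after shares are 95% Wilson intervals and cover only the error of counting.

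Plasma proteins keep up osmotic pressure, carry iron, heme, retinol, vitamin D, and lipids, and form the cascades of clotting and complement. Their genes are among the most active of hepatocytes, and in the liver they are bound by hepatocyte nuclear factors HNF1 and HNF4, by FOXA proteins, and by C/EBP proteins. LMs depend on PU.1, and they make some C3 of their own.

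The sequences of the open regions at the starts of *Alb*, *Apoa1*, *Apob*, *Fgb*, and *C3* are shown first, because these genes stand for the carriers, apolipoproteins, clotting factors, and complement. Those of *Gc* and *Plg* are the regions at member starts that held an HNF1 motif, and that of *Fetub* is part of the widest region of all the genes. That of *Orm1* was added after its values were seen, since its C/EBP match reads the same on both strands. Each is the stretch of the region without untranslated exon sequence, read 5′ to 3′ on the strand of the gene from the mm9 assembly (NCBIM37), and capitals mark a match to a motif described further on. For *Apoa1* this stretch follows the first exon. The position stands before each sequence.
Alb start (chr5:90889809-90889914, plus strand): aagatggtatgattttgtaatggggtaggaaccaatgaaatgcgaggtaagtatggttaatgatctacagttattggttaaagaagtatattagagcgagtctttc
Orm1 start (chr4:63005428-63005593, plus strand): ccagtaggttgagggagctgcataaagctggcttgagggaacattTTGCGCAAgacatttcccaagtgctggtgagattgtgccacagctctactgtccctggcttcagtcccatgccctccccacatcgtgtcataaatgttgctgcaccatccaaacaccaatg
Gc start (chr5:89886816-89886966, minus strand): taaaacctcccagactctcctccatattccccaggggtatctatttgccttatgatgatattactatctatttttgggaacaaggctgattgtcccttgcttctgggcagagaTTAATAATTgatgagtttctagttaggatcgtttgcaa
Apoa1 start (chr9:46036820-46036950, plus strand): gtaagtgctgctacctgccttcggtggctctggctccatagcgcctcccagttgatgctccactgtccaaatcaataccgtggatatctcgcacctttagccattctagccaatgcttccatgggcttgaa
Apob start (chr12:7984354-7984453, plus strand): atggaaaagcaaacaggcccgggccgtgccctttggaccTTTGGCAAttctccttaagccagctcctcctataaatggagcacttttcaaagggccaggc
Fgb start (chr3:82853728-82853925, minus strand): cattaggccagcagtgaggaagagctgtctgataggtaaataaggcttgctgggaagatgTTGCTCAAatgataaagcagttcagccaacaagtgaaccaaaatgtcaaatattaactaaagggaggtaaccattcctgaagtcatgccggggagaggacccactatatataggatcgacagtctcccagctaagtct
Plg start (chr17:12571370-12571474, plus strand): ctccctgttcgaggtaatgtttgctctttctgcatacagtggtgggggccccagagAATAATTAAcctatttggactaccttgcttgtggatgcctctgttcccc
C3 start (chr17:57367569-57367780, minus strand): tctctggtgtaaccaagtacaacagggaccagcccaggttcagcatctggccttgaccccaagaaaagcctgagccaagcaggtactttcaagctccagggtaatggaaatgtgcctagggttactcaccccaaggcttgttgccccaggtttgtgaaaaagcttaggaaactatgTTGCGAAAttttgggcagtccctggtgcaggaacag
Fetub start (chr16:22920111-22920294, plus strand): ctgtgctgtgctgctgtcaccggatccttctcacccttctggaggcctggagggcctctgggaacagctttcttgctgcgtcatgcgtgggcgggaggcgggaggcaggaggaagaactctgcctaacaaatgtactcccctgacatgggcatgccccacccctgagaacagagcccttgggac

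For the HNF4 motif, the 5 regions whose sequence could be printed are shown on the plus strand, because the ratio of its share to that of all regions was the highest among the 6 motifs. The region between *Alb* and *Afp* follows, as the region nearest to the start of *Afp*. These 6 were chosen after their values were seen. The region labelled *Vtn* intron lies in the gene body near a start of *Vtn*, and regions near starts were not sorted into exon and intron.
F5 intron (chr1:166093035-166093230, plus strand): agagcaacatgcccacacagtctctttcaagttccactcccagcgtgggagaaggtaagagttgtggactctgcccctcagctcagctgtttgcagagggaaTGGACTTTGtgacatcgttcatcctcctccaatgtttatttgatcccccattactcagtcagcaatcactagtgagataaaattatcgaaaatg
Vtn intron (chr11:78314406-78314556, plus strand): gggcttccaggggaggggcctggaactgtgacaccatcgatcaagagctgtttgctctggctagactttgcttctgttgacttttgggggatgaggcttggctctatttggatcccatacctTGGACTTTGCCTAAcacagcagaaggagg
Itih1 upstream (chr14:31758041-31758256, plus strand): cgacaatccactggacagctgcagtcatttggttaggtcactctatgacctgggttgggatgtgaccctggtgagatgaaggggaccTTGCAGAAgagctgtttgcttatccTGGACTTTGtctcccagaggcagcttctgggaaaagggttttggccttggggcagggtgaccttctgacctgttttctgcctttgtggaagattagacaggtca
F10 downstream (chr8:13057419-13057651, plus strand): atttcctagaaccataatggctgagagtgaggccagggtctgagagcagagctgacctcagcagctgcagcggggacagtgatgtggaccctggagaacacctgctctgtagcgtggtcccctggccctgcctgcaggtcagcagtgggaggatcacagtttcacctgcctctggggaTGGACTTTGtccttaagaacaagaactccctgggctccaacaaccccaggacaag
F11 downstream (chr8:46324854-46325027, plus strand): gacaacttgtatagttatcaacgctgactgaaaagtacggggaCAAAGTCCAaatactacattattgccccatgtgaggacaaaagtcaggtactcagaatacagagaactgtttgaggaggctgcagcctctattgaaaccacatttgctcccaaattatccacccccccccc
Alb-Afp (chr5:90914829-90914991, plus strand): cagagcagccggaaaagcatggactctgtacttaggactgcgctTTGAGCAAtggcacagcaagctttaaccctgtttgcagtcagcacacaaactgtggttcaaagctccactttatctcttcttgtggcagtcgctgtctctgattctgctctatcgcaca

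Of the 41 genes, 38 had an open start, meaning that a region came within 1000 bp of the first base of at least 1 annotated transcript. This is 92.7% (95% CI 80.6% to 97.5%), and the same held for 57.1% of all protein-coding genes. A region covered a start itself in 27 of the genes, or 65.9%, beside 38.9% of all protein-coding genes. Each of the 41 genes had at least 1 region in its body or flanks, beside 74.4% of all protein-coding genes. The region at an open start had its midpoint at a median of -58.25 bp from the start, where negative is upstream, and in 26 of 38 genes (68.4%) it lay upstream. For all protein-coding genes with an open start the median was -47 bp and the share upstream 67.5%, so the position of the region was near the background. The width of these regions was also near the background, with a median of 199.5 bp in plasma protein genes and 201 bp in all open starts. Near the limit of 1000 bp, *Apoa2* was just inside with a region at 972 bp, and the next gene outside was *Serpinc1* at 2877 bp.

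**Figure D1:**
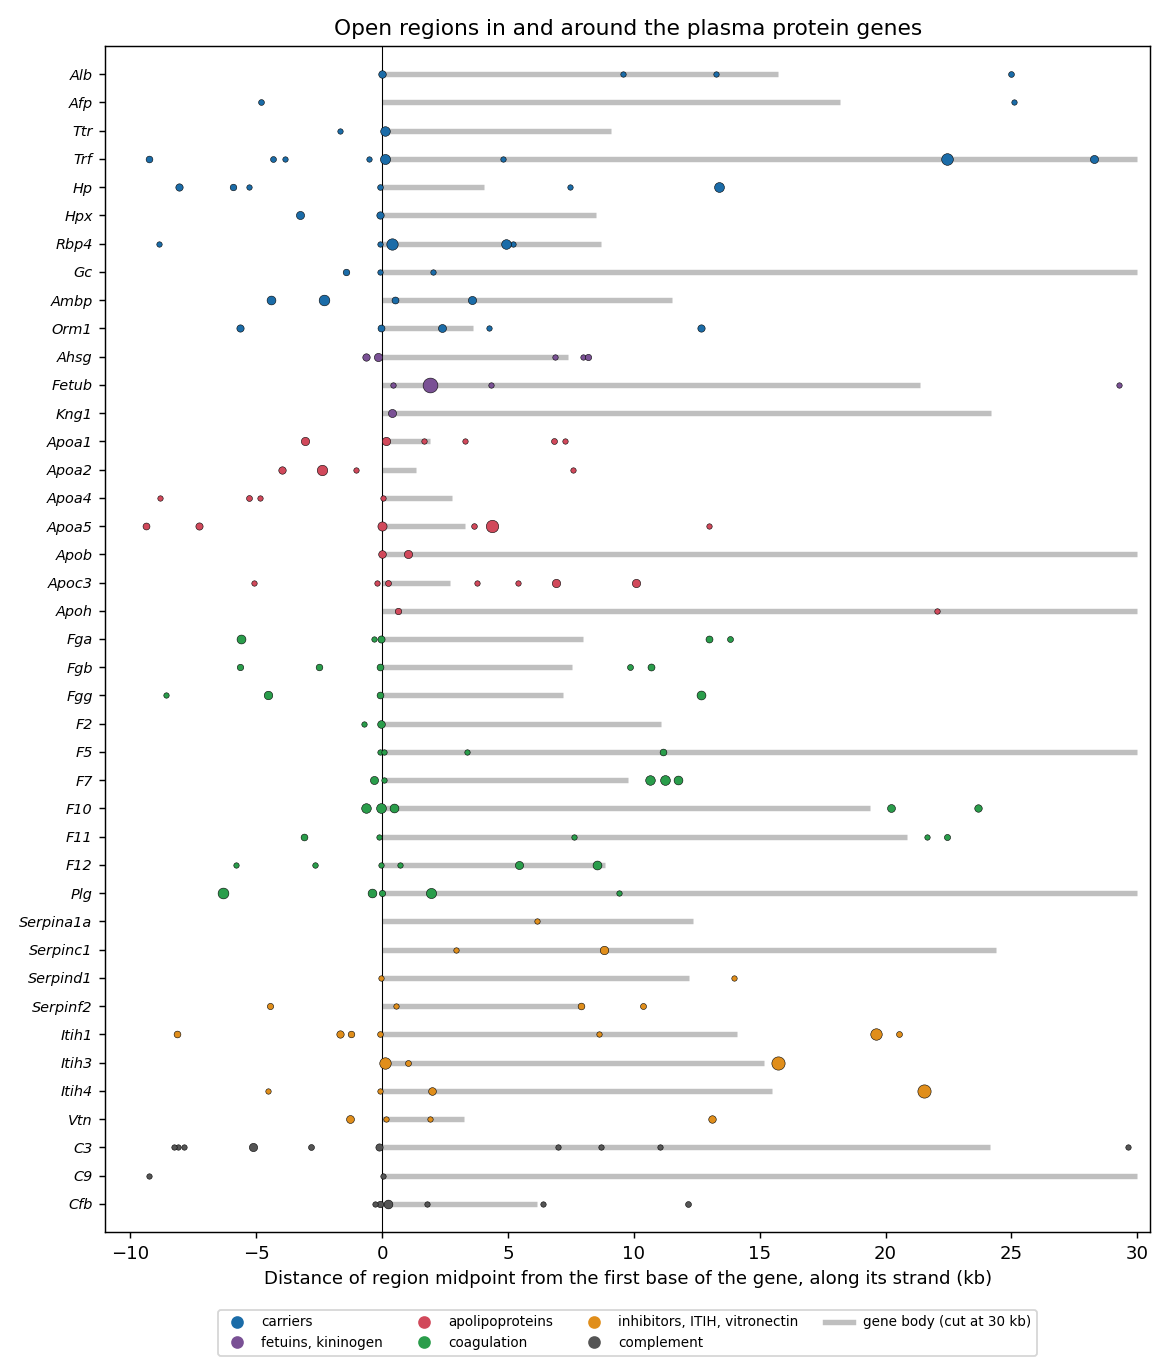
Open regions around the 41 plasma protein genes. The x axis gives the distance of each region's midpoint from the first base of the gene along its strand in kb, each row is a gene, gray bars are gene bodies, points are regions with a size that grows with width, and colors are the role groups. Of 182 pairs of a region and a gene, 173 are drawn and 9 lie beyond 30 kb. Points gather at the start in nearly every row, while *Afp*, *Serpina1a*, and *Serpinc1* have none there.

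Plasma protein genes had starts with few CpG dinucleotides. The ratio of observed to expected CpG within 500 bp of the first base had a median of 0.197 in the 41 genes and 0.549 in all protein-coding genes. It ran from 0.0371 at *Kng1* to 0.745 at *Apoh*. A ratio under 0.6 was called CpG-poor, which left *Rbp4* (0.650) and *Apoh* as the CpG-rich members. The first base of *Apoh* in this annotation lies near the start of *Prkca*, and its other start, covered by a region, is in the body of the annotated gene. Among the 39 plasma protein genes with a CpG-poor start, 36 were open, or 92.3% (79.7% to 97.3%), whereas 32.2% of the 12162 protein-coding genes with a CpG-poor start were open. CpG-rich starts of protein-coding genes were open in 86.7%. The regions at the open member starts had a median GC content of 53.4% and a median CpG ratio of 0.214, and those at all open coding starts had 63.5% and 0.784.

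The cells were labelled as liver macrophages, so the same rule was applied to lists of genes typical of cell types. Of 20 macrophage genes, 12 had an open start (38.7% to 78.1%), among them *Emr1*, *Clec4f*, *Cd68*, *Timd4*, *Cd5l*, *Spi1*, and *Irf8*. The other 8 were *Csf1r*, *Vsig4*, *Marco*, *Cd163*, *Fcgr1*, *Lyz2*, *Cx3cr1*, and *Cybb*. Of 20 hepatocyte genes whose products stay in the cell, 19 had one (76.4% to 99.1%), with the uptake transporter *Slco1b2* as the exception. Endothelial genes had 17 of 20 and stellate cell genes 5 of 20. Of 20 genes of neurons and muscle, 4 had one (*Snap25*, *Gad2*, *Camk2a*, and *Ttn*), and of 20 secreted proteins of other organs, 3 had one (*Ins2*, *Cela1*, and *Gh*). Among CpG-poor starts alone, those of 19 of 20 hepatocyte, 15 of 17 endothelial, and 11 of 19 macrophage genes were open. For stellate cells this was 3 of 14, for neurons and muscle 3 of 17, and for other organs 3 of 20, where the background is 32.2%. A share above that background was not particular to the plasma protein genes. Among 54 further genes of plasma proteins made by the liver, 36 had an open start, or 66.7% (53.4% to 77.8%). A region covered a start in 22 of these, or 40.7%. Both shares were lower than in the 41 genes. The open starts of plasma protein genes thus stood beside open starts of many, though not all, other hepatocyte genes in a list labelled as macrophage. The part of hepatocyte chromatin in these regions was not tested.

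**Figure D2:**
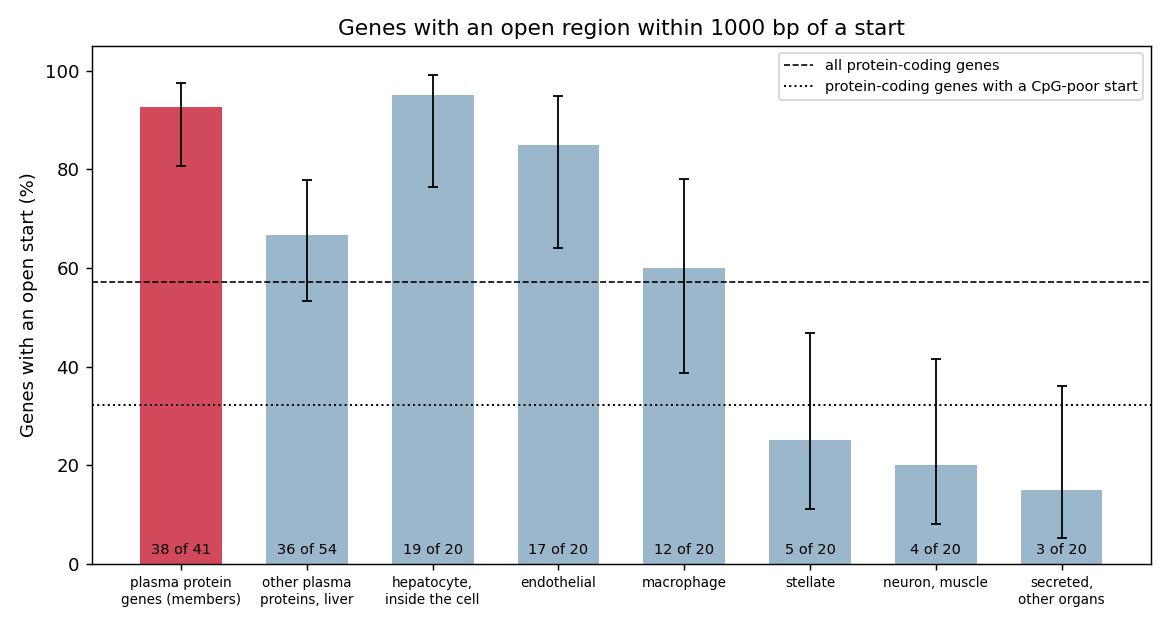
Share of genes with an open start in the plasma protein genes and in the comparison lists. The y axis is the percentage of genes with a region within 1000 bp of a start, bars are lists with the counts written in them, and error bars are 95% Wilson intervals for counting error. The dashed line is the share of all protein-coding genes (57.1%) and the dotted line that of genes with a CpG-poor start (32.2%), and the bar of the plasma protein genes lies above both.

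The number per gene ran from 1 to 11 with a median of 4, beside a median of 2 for all protein-coding genes. The plasma protein genes were shorter, with a median of 11525 bp beside 15427 bp, so the number was divided by the length of the gene with its flanks. The median was then 1.27 regions per 10 kb, beside 0.470 for all protein-coding genes, and 36 of 41 genes were above the latter value. The 90th percentile of all protein-coding genes was 1.72 regions per 10 kb, and 16 of 41 genes were above it, or 39.0% (25.7% to 54.3%), where the background is 10.0%. Counted once per stretch of DNA, the 1438784 bp of joined gene territory held 1.13 regions per 10 kb, and the territory of all protein-coding genes held 0.424. By position, a region shared by several genes was counted once for each of them. There were then 1.83 regions per 10 kb upstream, 0.827 in the body, and 1.15 downstream, beside 0.885, 0.380, and 0.650 for all protein-coding genes.

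**Figure D3:**
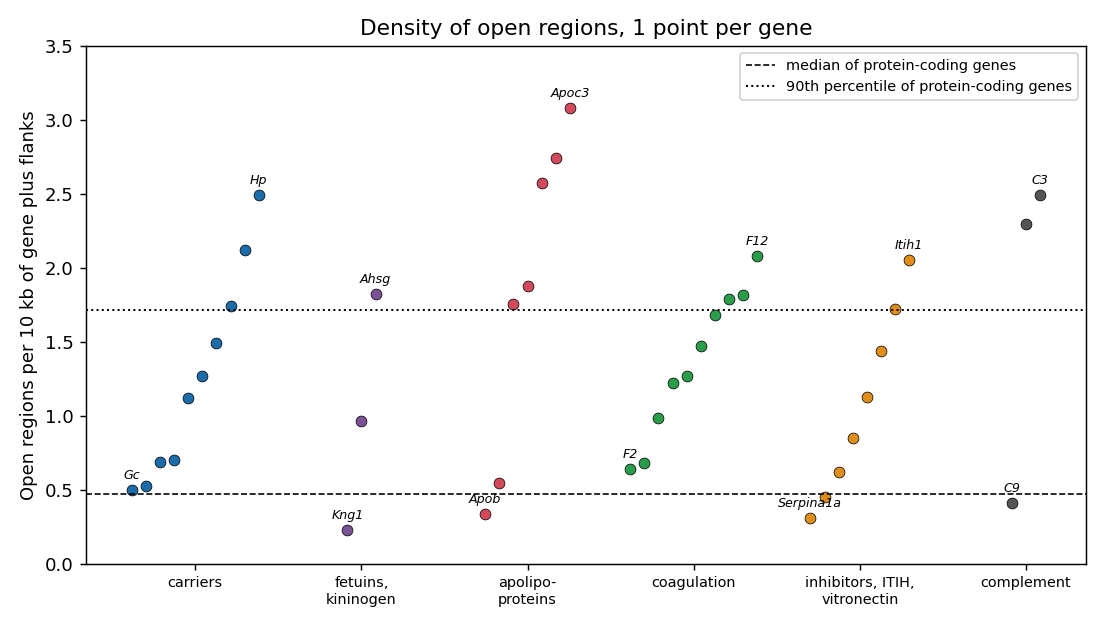
Density of open regions in the 6 role groups. The y axis gives open regions per 10 kb of gene plus flanks, each point is 1 gene, the dashed line is the median (0.470) and the dotted line the 90th percentile (1.72) of protein-coding genes. *Apoc3* is highest at 3.08 and *Kng1* lowest at 0.226.

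Among the carriers, 9 of 10 genes had an open start, and together they held 41 regions. *Trf*, which encodes the iron carrier transferrin, had the most with 9. Its regions included a start region of 306 bp and a wide intron region of 358 bp, and 1 of the 9 lay at a start of *Srprb* inside the *Trf* gene. *Hp*, which encodes the hemoglobin binder haptoglobin, had 6 regions in a short gene of 4043 bp, and none of them lay in the gene itself. Of these 6, 4 were upstream and 2 downstream, and 1 of the latter pair was at the start of *Txnl4b*. *Rbp4* (retinol carrier) and *Orm1* (orosomucoid, an acute phase protein) had 5 each, *Ambp* (α1-microglobulin and bikunin) had 4, *Gc* (vitamin D-binding protein) had 3, and *Hpx* (heme carrier) and *Ttr* (transthyretin, a thyroid hormone carrier) had 2. The start of *Orm1* was covered by a region of 202 bp, and its neighbors and near copies *Orm2* and *Orm3* had open starts too, at 0 bp and 942 bp. Reads in near-identical copies may be assigned to either copy.

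*Alb*, which encodes albumin, had 4 regions. The widest was 221 bp and covered its start, 2 of 151 bp lay in introns, and the last was downstream, between *Alb* and *Afp*. *Afp* encodes α-fetoprotein, the plasma protein of the fetal liver, and it was the only carrier with no open start. Its nearest region was the 1 shared with *Alb*, 4749 bp upstream of its start, and its other region lay past its end, nearest to the start of *Afm*. Within the territory that both genes share, the start of *Alb* was thus open and that of *Afp* was not in the list.

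*Ahsg* and *Fetub* encode fetuin-A and fetuin-B, which inhibit mineral deposition and proteases, and *Kng1* encodes the precursor of bradykinin. All 3 had open starts. *Ahsg* had 5 regions and *Fetub* 4, and the widest region of all 41 genes, at 463 bp, covered a start of *Fetub*. *Fetub* had 3 regions within 1000 bp of its several starts. *Kng1* had a single region, 240 bp wide, over 1 of its starts, and the lowest density of the 41 genes at 0.226 per 10 kb.

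Of the apolipoproteins, which package lipids into lipoproteins, 7 of 7 had an open start, and in 6 of them a region covered it. The exception was *Apoa2*, whose nearest region was 972 bp upstream. *Apoc3*, an inhibitor of triglyceride clearance, had 7 regions and the highest density of the 41 genes, 3.08 per 10 kb. *Apoa1*, the main protein of HDL, followed with 6 regions and 2.74 per 10 kb, and *Apoa5*, which promotes triglyceride clearance, with 6 and 2.58. *Apoa1*, *Apoc3*, and *Apoa4* lie within 1 territory of 34880 bp that held 7 regions in all, so their counts are not independent. Of the 6 regions of *Apoa5*, 2 were at the start of *Zfp259* and 1 was in an exon of that gene. *Apoa4* had 4 regions, *Apoh* (β2-glycoprotein I) 5, and *Apob*, the structural protein of VLDL and LDL, 2 at its start in a gene of 39188 bp. *Apob* was 1 of the 5 genes below the median density of protein-coding genes.

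All 10 genes of coagulation and fibrinolysis had an open start, and in 8 of them a region covered it. They held 43 regions. *F5* (a cofactor of thrombin generation), *F12* (a starter of the contact pathway), and *Plg* (plasminogen, the precursor of plasmin) had 6 each. *Fga*, *Fgb*, *F7*, *F10*, and *F11* had 5, *Fgg* had 4, and *F2*, which encodes prothrombin, had 2, both at its start. The 3 fibrinogen chain genes share a territory of 61945 bp with 11 regions. By midpoint, none of these 11 lay in a fibrinogen gene body. They were at the 3 starts, between the genes, or outside the outermost genes, and 1 of the last kind was at the start of the neighbor *Plrg1*. The pair *F7* and *F10* had 7 regions in 50643 bp, of which 3 were at the start of *F10*, just past the end of *F7*. Both regions at the start of *F5* are also near the start of the annotated gene *Gm16548*, and likewise the region at the start of *Ttr* is near that of *Gm16090*.

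**Figure D4:**
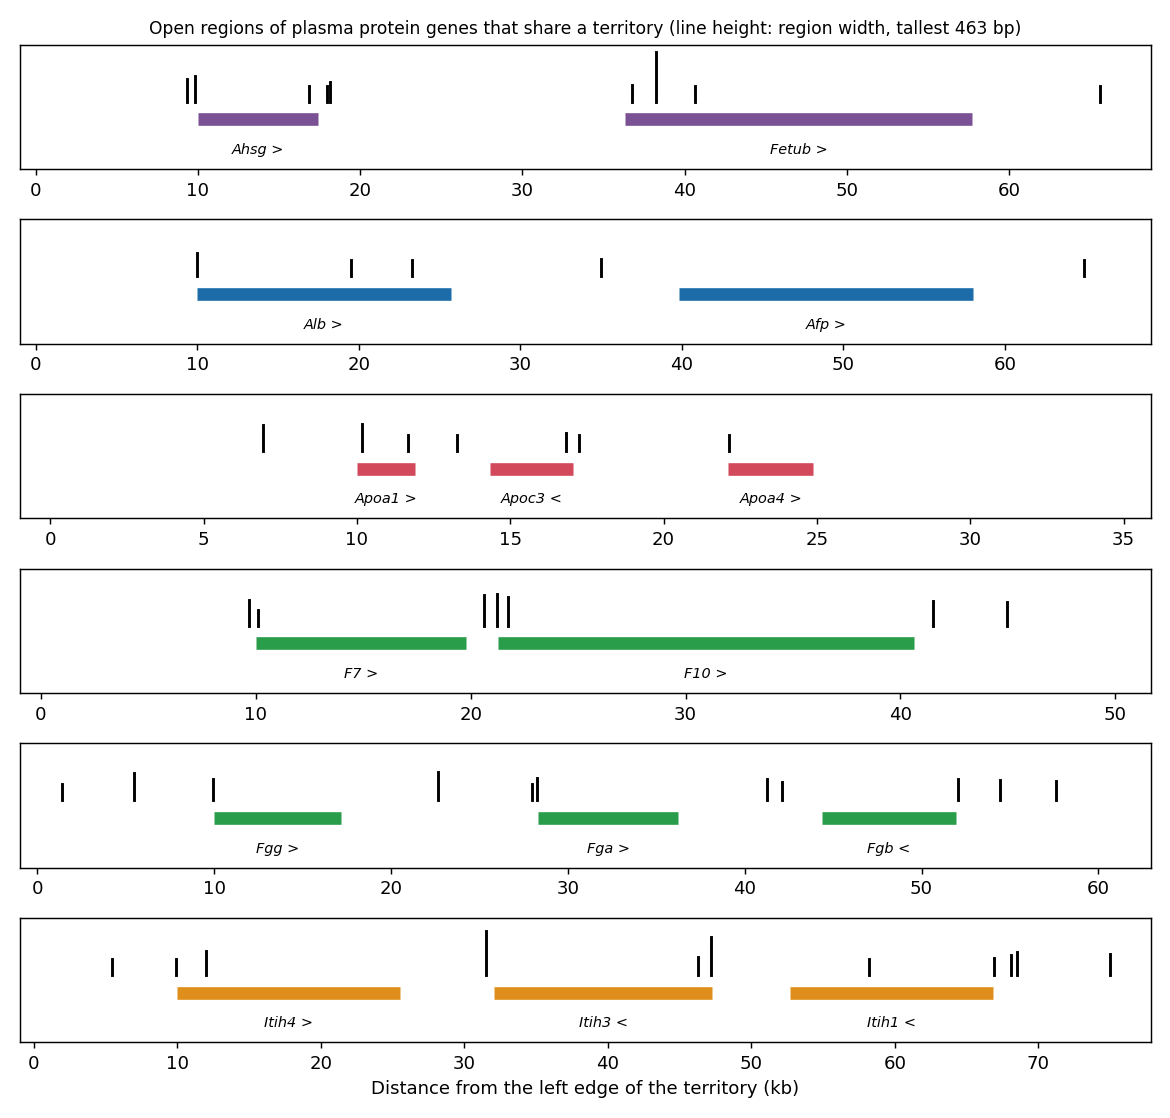
Open regions in the 6 territories with more than 1 plasma protein gene. The x axis is the distance from the left edge of the territory in kb, colored bars are gene bodies with their direction, and vertical lines are regions, whose height is their width (the tallest is 463 bp). In the fibrinogen territory the 11 lines stand beside the gene bodies, and in that of *Alb* and *Afp* a line stands at the start of *Alb* and none at the start of *Afp*.

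The protease inhibitors, heavy chains, and vitronectin had the lowest share of open starts among the role groups, with 6 of 8. *Serpina1a* (α1-antitrypsin) and *Serpinc1* (antithrombin) had none. The only region of *Serpina1a* was in an intron, 3686 bp from the nearest start. In the near copies *Serpina1b*, *Serpina1c*, and *Serpina1d*, the nearest region was at 113, 170, and 137 bp from a start, and in *Serpina1e* at 4491 bp. Reads in this family may be assigned to any copy, so the *Serpina1a* call is uncertain. *Serpinc1* had 2 intron regions, the nearer 2877 bp from its start. *Serpind1* (heparin cofactor II) had 2 regions and *Serpinf2* (α2-antiplasmin) 4. The heavy chains of inter-α-trypsin inhibitor, which are linked to hyaluronan in the matrix, had 7 regions at *Itih1*, 3 at *Itih3*, and 4 at *Itih4*. These genes share 76814 bp with 11 regions, among them 1 of 411 bp between *Itih4* and *Itih3*. *Vtn*, which encodes the adhesion protein vitronectin, had 4 regions, 2 of them at starts of its own and 2 at starts of *Sarm1* and *Tmem199*.

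All 3 complement genes had an open start. *C3*, the central component of the cascade, had 11 regions, the most of the 41 genes, at 2.49 per 10 kb. Its start region was 212 bp wide and lay 10 bp upstream, 3 regions were in its body, and 3 upstream regions lay in exons of *Gpr108*. *Cfb*, a protease of the alternative pathway, had 6 regions, 3 of them at its start, and all 3 of these lay in the overlapping gene *Gm20547*, 2 of them also in *C2*. *C9*, which forms the membrane pore, had 3 regions in a gene of 53418 bp.

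Of the 162 regions, 58 (35.8%, 28.8% to 43.4%) lay at a start of a member, 14 at a start of another gene, 11 in exons, 33 in introns, and 46 between genes. Of all 69362 regions on the assembled chromosomes, 30.0% lay at a start of any gene, 3.52% in exons, 33.7% in introns, and 32.7% between genes. That start class joins the first 2 classes of the member regions. By their assignment all member regions lie in a gene or within 10 kb of it, as 53189 of all regions do for protein-coding genes. The shares of the 2 sets are therefore not like for like. The nearest start was that of a member for 124 of the 162 regions, so the remainder may belong to neighbors such as *Prkca*, *Txnl4b*, *Zfp259*, and *Plrg1*. Regions of these genes were of usual width, with a median of 169 bp beside 160 bp for all regions, and 36.4% (29.4% to 44.1%) were at least 200 bp wide beside 30.7%. Of the member regions, 11 were wider than 2 times the commonest width of 151 bp, or 6.79% (3.83% to 11.7%), beside 2.74% of all regions.

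The regions were searched on both strands for short consensus motifs, with N for any base. The letters were TTAATNATT for HNF1, CAAAGTCCA for HNF4, TTGCNNAA for C/EBP, TGTTTAC for FOXA, GAGGAAGT for PU.1, and TGANTCA for AP-1. The C/EBP motif was in 32 of 162 regions, or 19.8% (14.4% to 26.6%), where the background of all regions is 10.4%. The HNF4 motif was in 7, or 4.32% (2.11% to 8.65%), beside 0.960%. The HNF1 motif was in 2, or 1.23%, beside 1.07%, and FOXA in 6, or 3.70%, beside 3.65%. The PU.1 motif was in 4, or 2.47%, beside 3.82%, and AP-1 in 12, or 7.41%, beside 8.30%. The intervals of HNF1, FOXA, PU.1, and AP-1 all include the background of all regions, but the intervals cover counting error alone and are no test. The order also differs by class. Among the 58 regions at member starts, the HNF4 motif was in 1, or 1.72% (0.305% to 9.14%), beside 0.451% of all regions at starts. The motifs were not assigned to cell types. In windows of 300 bp around the midpoints, which give every region the same length, C/EBP was in 27.2% of the member regions and 14.9% of all regions, and HNF4 in 4.94% and 1.25%. A match says that these letters are in the region and not that a factor was bound. Sites that differ from these letters were not counted, so a region without a match, such as that at the *Alb* start, may still hold one.

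**Figure D5:**
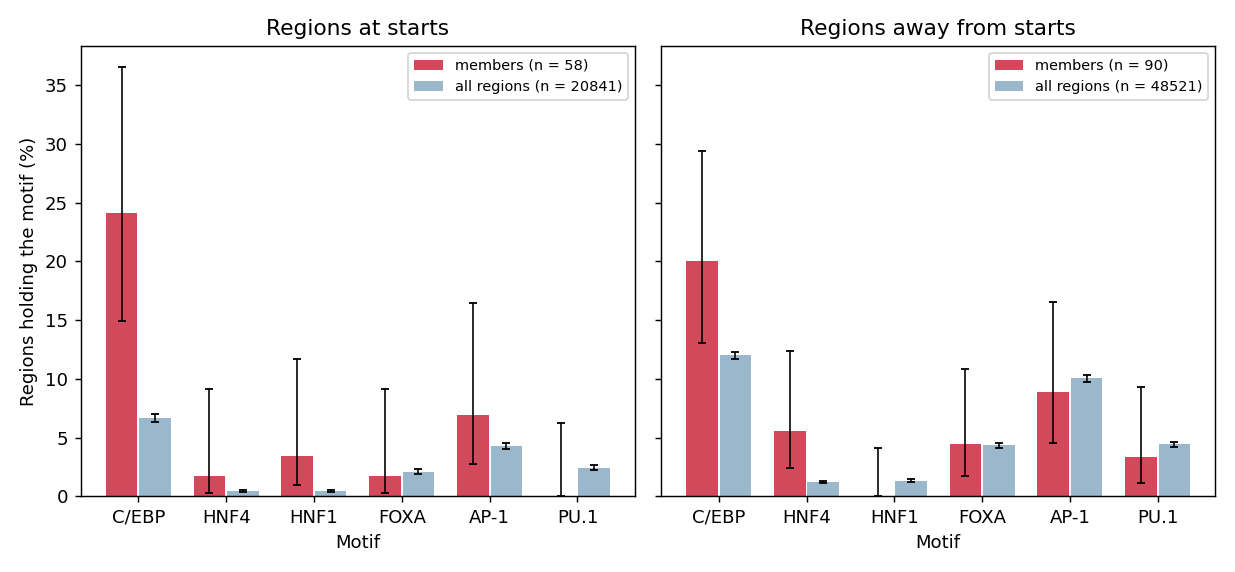
Share of regions that hold each motif, at starts (left) and away from starts (right). The y axis is the percentage of regions, red bars are regions of the plasma protein genes (58 and 90), blue bars all regions of the same class (20841 and 48521), and error bars are 95% Wilson intervals. In percentage points the widest gap at starts is that of C/EBP, with 24.1% beside 6.66%, while by ratio it is that of HNF1, which rests on 2 regions. The groups at starts also differ in GC and CpG content.

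At member starts the C/EBP matches were in 14 of 58 regions, or 24.1% (15.0% to 36.5%), beside 6.66% of all regions at starts, and away from starts in 18 of 90, beside 5824 of 48521. The 58 regions had a median GC content of 53.0% and a CpG ratio of 0.203, and all regions at starts had 61.3% and 0.696. The part of this composition in the motif shares at starts was not tested. Among the printed sequences, *Apob*, *Fgb*, *C3*, and *Orm1* carry one at the start, and that of *Orm1*, TTGCGCAA, is a perfect palindrome. The region between *Alb* and *Afp* holds one as well. The 7 HNF4 matches were at *F5*, *Vtn*, *Itih1*, *Ambp*, *F10* (2 regions), and *F11*, and all but 1 read TGGACTTTG on the plus strand, the reverse complement of the motif. Of the 7, 5 lay away from starts, in an intron or between genes, that of *Vtn* lay in its gene body near one of its own starts, and 1 of the 2 *F10* regions is at the start of the neighbor *Proz*. In *Vtn* the HNF4 match overlaps a C/EBP match by 3 bases. Both HNF1 matches were at starts, those of *Gc* and *Plg*, where the share is 3.45% of 58 regions (0.951% to 11.7%) beside 0.461% of all regions at starts.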

How the data were processed

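ATAC-Seq was performed on isolated LMs in 18 libraries. The authors trimmed adapters, aligned reads to mm9 with Bowtie in a published ATAC-Seq pipeline, joined the replicates' alignments, and then called peaks. The peak caller, its threshold, and how peaks were joined are not given in the sources used here, and HOMER was named for read counts. The deposited file holds other values than counts: a start (from 0, given here from 1) and an end per region in bp, so depth per library is unknown and no expression or accessibility level was tested.

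Genes and starts were taken from the GENCODE vM1 annotation and sequence from NCBIM37. Regions on random or mitochondrial sequence were left out, which left 69362. The annotation's 2 entries named *Trf* were joined. The steps were tested on simulated data. All genes were placed by role. Values are given in full for the genes with the most regions of each role and those without an open start. Sequences were chosen as said beside them, and none is printed from chromosome 18, where *Ttr* lies. The genes, lists, and thresholds were chosen with earlier results of these data known. Alternatives were other distances, flanks, widths, and joining. RefSeq starts were matched from 33 promoters (GRCm38.p6) by exact sequence. The tools were SciPy 1.17.1, matplotlib 3.10.9, and NumPy 2.4.6 under Python 3.11.15.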

Additional observations from a re-analysis of the deposited data

How the results depend on the processing

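Open starts of the 41 plasma protein genes numbered 27 when a region had to cover a start, 37 at 500 bp, and 41 at 5000 bp, and 38 with the first base of each gene alone. Among all 22367 protein-coding genes the same settings gave 8695, 12317, 14411, and 11961. With regions at least 200 bp wide, 21 of the 41 genes had an open start, beside 7784 of the 22367 protein-coding genes. In the lists this held for 16 of 54 other plasma protein genes. Of 20 genes in each other list, it held for 12 hepatocyte genes of the cell interior, 5 macrophage genes, 7 endothelial genes, 3 stellate genes, 0 genes of neurons and muscle, and 1 secreted by other organs. With a start covered, the lists had 22 other plasma protein genes, 10 endothelial, 3 stellate, 1 of neurons and muscle, and 0 secreted by other organs, which also had 0 at 500 bp. At 5000 bp there were 10 stellate genes, 10 of neurons and muscle, and 6 secreted by other organs. Without flanks the genes held 60 regions with a median of 1, and 10 genes had none. These 10 were *Afp*, *Hp*, *Hpx*, *Apoa2*, *Apoa5*, *Fga*, *Fgb*, *Fgg*, *F2*, and *Serpind1*. Regions were placed by midpoint, so a region that covers a start, such as that of *Apoa5*, can count as outside the gene. With flanks of 50 kb there were 326 regions and a median of 12, and with regions at least 200 bp wide 59 and a median of 2, with 10 genes that had none. Genes without a region were not counted among all protein-coding genes in these settings. The share at a start of a member was 61.1% at 5000 bp and 45.0% without flanks. The C/EBP share was 27.2% in windows of 300 bp and 39.0% in regions at least 200 bp wide (13.6% of all such regions), and the HNF1 share 0% in the latter. Counts fell or rose by construction with fewer regions, a narrower or a wider window, and for the C/EBP and HNF1 shares in wide regions the cause was not tested.

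Of the recomputed values, 62 stayed near the value reported and 31, all given above, did not. Near means within 1.5 times for counts and medians and within the 95% interval of the reported value for shares. By this rule the open starts of the plasma protein genes and of all protein-coding genes stayed near at each other distance and with the first base alone. After the data were seen, 4 alternatives were added. RefSeq starts gave 30 of 33 genes, CpG-poor starts 36 of 39, leaving out *Ttr* and *F5* 36 of 39, and leaving out regions in or at other genes 128 regions. Among the 30, the *Apoa2* call rested on another region. The RefSeq start of *Apoa2* lay 3490 bp from its GENCODE start, and 373 bp from a region counted above at the start of *Tomm40l*. No paired analysis was possible because all libraries are joined in 1 list and no value comes from a test. For the same reason no replicate could be left out. Depth and the peak threshold set limits that cannot be given, so a site missing from the list was not called and need not be closed.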

Other observations

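Of 54 further genes of plasma proteins made by the liver, 36 had an open start, or 66.7% (53.4% to 77.8%), an interval that includes the 57.1% of all protein-coding genes. Of the 53 with a CpG-poor start, 35 were open, or 66.0% (52.6% to 77.3%), beside 32.2% of all protein-coding genes with such a start. The median of the 54 genes was 3 regions per gene. Those with regions over a start included *Masp1*, a protease of the lectin pathway, with 12 regions, *Pon1* (paraoxonase) and *Apoe* with 8 each, and *Cp* (ceruloplasmin) with 5. The 18 without an open start were *C1ra*, *C5*, *C8a*, *Mbl2*, *C4bp*, *F13b*, *Serpina5*, *Apoc4*, *Apom*, *Serpina3k*, *Serpinf1*, *Saa1*, *Saa2*, *Lect2*, *Fgl1*, *Igf1*, *Mug1*, and *Mug2*. Of these, *Fgl1* at 1038 bp, *Serpina3k* at 1273 bp, and *Igf1* at 1474 bp were just outside the limit, and *F13b*, *Mug1*, and *Mug2* had no region at all. The *Serpina3*, *Saa*, and *Mug* genes have near copies, so their calls are uncertain.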
